A study of Rattus norvegicus with 6 samples.

Results

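The miR-99/100 and miR-125 families were followed in the rat heart during chronic colitis. Members were every probe of the array named miR-99a, miR-99b, miR-100, miR-125a or miR-125b, whichever arm of the precursor it reads, and this rule found 11 of the 761 miRNA probes. Heart RNA came from adult Sprague Dawley rats, which the methods describe as male littermates. The control group held 3 hearts (animals 9, 10 and 11). The DSS group held 3 hearts (animals 13, 14 and 16) of rats that drank 3% dextran sodium sulfate, an agent that injures the colon lining, in 4 cycles of 5 days with 9 days of plain water after each, 8 weeks in all. The colitis is chemically induced, and the RNA is that of heart tissue. The methods do not state which part of the heart was used for these arrays. Each heart had 1 array, stained in 1 color, with 4 spots per miRNA probe. Values below are normalized signals on the log2 scale, in the order of animals 9, 10 and 11 for control and 13, 14 and 16 for DSS.

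MicroRNAs are short RNAs that pair through their seed, bases 2 to 8 from the 5′ end, with messenger RNAs and repress them. miR-100 is among the most conserved animal microRNAs, and the miR-99/100 family is known to repress mTOR, a kinase that drives cell growth. miR-125 is the vertebrate counterpart of worm lin-4, the first microRNA described, and is known in blood cell development and in the vessel wall. In vertebrates both families lie in clusters with a let-7 gene between them, and let-7 is known as a brake on growth that accumulates as tissues mature.

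The sequences show which members share a seed and how near the paralogs are, which bears on how well the probes can separate them. They are the targets of the array probes, and 10 of the 11 members matched a RefSeq mature entry (GRCr8) with the same letters. Capitals mark the seed.
miR-100-5p: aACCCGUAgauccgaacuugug
miR-99b-5p: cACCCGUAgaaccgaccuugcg
miR-125a-5p: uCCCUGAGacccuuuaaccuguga
miR-125b-5p: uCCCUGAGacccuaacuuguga
miR-351-5p: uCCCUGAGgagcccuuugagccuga
let-7c-5p: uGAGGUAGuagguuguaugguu
let-7a-5p: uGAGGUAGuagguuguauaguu
let-7e-5p: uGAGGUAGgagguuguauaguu
miR-99b-3p: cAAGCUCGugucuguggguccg
miR-125b-2-3p: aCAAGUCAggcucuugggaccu

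The seed ACCCGUA was carried by 3 probes of the array, miR-99a-5p, miR-99b-5p and miR-100-5p. The seed CCCUGAG was also carried by 3 probes, miR-125a-5p, miR-125b-5p and the relative miR-351-5p. The target of miR-99a-5p differs from that of miR-100-5p by 1 base, and shared signal between their probes was not tested. miR-100-5p differs from miR-99b-5p by 4 substitutions, A1C, U11A, A16C and U21C, with positions counted from 1 at the 5′ end of miR-100-5p and its base given first. miR-125a-5p and miR-125b-5p lie 3 edits apart (substitutions, insertions or deletions), and miR-125b-5p and miR-351-5p lie 9 apart. let-7c-5p and let-7e-5p each differ from let-7a-5p by 1 base (A19G and U9G, with the let-7a-5p base first).

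The hairpins form 3 clusters of the same order, a miR-99/100 gene, a let-7 gene and a miR-125 gene, all on the plus strand of GRCr8. On chromosome 11, Mir99a (chr11:29687392-29687472), Mirlet7c1 (chr11:29688112-29688205) and Mir125b2 (chr11:29732572-29732659) lie within the long noncoding gene LOC103693508. On chromosome 8, Mir100 (chr8:50798295-50798374), Mirlet7a-2 (chr8:50805203-50805298) and Mir125b1 (chr8:50850036-50850122) lie within the annotated spans of Mir100hgl and Lnc215. On chromosome 1, Mir99b (chr1:67350064-67350133), Mirlet7e (chr1:67350229-67350321) and Mir125a (chr1:67350675-67350759) lie within Spaca6, a protein-coding gene. The last cluster spans 696 bases, against 45268 and 51828 bases for the others. Mature miR-125b-5p can come from both Mir125b1 and Mir125b2, and let-7a-5p and let-7c-5p also have other loci, so these probes do not tell the clusters apart.

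Of the 11 members, 7 were detected on at least 3 of the 6 arrays and were compared between the groups with limma. These were all 5 of the 5p arms and 2 of the 6 3p arms, miR-99b-3p and miR-125b-2-3p. miR-99a-3p, miR-100-3p and miR-125b-1-3p were detected on no array, and miR-125a-3p was detected on 1, that of DSS animal 13. The dim members are read with caution, since 23.4% of empty spots on the array of control 10 and 32.1% on that of DSS 14 were brighter than the detection limit. The share was between 1.27% and 10.8% on the other arrays. On the array as a whole, 366 of 761 probes were detected on none, and 282 were compared. Cardiomyocyte miRNAs fitted the heart label, with miR-1-3p, miR-133a-3p, miR-133b-3p and miR-499-5p detected on all 6 arrays, whereas miR-208a-3p was detected on 1 and miR-208b-3p on none.

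Among the 7 members compared, miR-99a-5p, miR-100-5p and miR-125b-2-3p were lower in DSS hearts and miR-125a-5p was higher, at an adjusted p below 0.05 over all 282 miRNAs. miR-99b-5p, miR-99b-3p and miR-125b-5p did not pass. miR-125b-2-3p entered the comparison through the control arrays, where its signal was higher, with detection on 3 of them and on 1 DSS array. At this threshold 49.3% of all compared miRNAs were called, 28.4% lower and 20.9% higher, and the 3 lower and 1 higher of 7 are read against that background. Of these calls over all miRNAs 42.4% were higher, and scaling to the spike-in probes made that 92.5%, scaling to the 5S rRNA probes 90.2% and no normalization 68.1%. The median difference of the 7 members was -0.39 on the log2 scale, against -0.06 over all 282. The DSS values lay wholly below the control values for 4 members, wholly above for 2 and overlapped for 1, against 34.8% wholly below and 31.6% wholly above (66.3% together) of all compared miRNAs. At an unadjusted p below 0.05 stood 5 of the 7 members, against 58.5% of all.

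**Figure D1:**
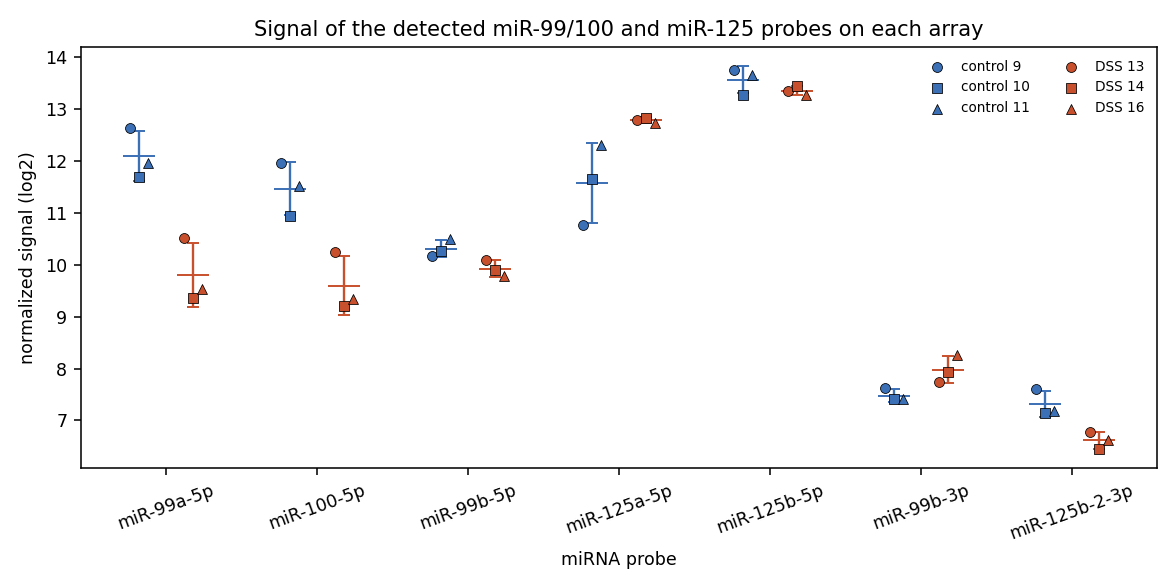
Normalized log2 signal (y axis) of the 7 detected miR-99/100 and miR-125 probes (x axis) on each array, blue for control and red for DSS, with a marker shape per animal. Long bars are group means and error bars are SD (n = 3). The separation is widest for miR-99a-5p and miR-100-5p, whereas the groups of miR-125b-5p overlap.

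The miR-99/100 seed was carried by the members with the largest falls. miR-99a-5p (rno-miR-99a-5p in the files) read 12.64, 11.69 and 11.96 in control hearts and 10.52, 9.37 and 9.54 in DSS hearts. Every DSS heart lay below every control heart, and DSS 13 stood nearest to the controls. The mean fell from 12.10 ± 0.49 to 9.81 ± 0.62 (SD, n = 3), which is 4.89-fold lower (log2 difference -2.29 ± 0.38 SE, 95% interval -3.20 to -1.38, limma adjusted p = 0.0151). In the authors' processed table, on a linear scale, the same probe read 6990, 3767 and 4245 in control and 1472, 442 and 717 in DSS.

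miR-100-5p (rno-miR-100-5p) behaved much like it. Its values were 11.97, 10.93 and 11.52 in control hearts and 10.24, 9.21 and 9.34 in DSS hearts, again with no overlap and with DSS 13 the highest of the DSS group. The mean fell from 11.47 ± 0.52 to 9.60 ± 0.56 (SD, n = 3), which is 3.67-fold lower (log2 difference -1.87 ± 0.37 SE, 95% interval -2.76 to -0.99, limma adjusted p = 0.0151). Both calls were lost without DSS 16, where no miRNA of 268 passed limma's adjusted threshold (124 at an unadjusted p below 0.05) and the adjusted p of each was 0.0593. The differences then were -2.08 for miR-99a-5p and -1.71 for miR-100-5p.

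The third paralog, miR-99b-5p (rno-miR-99b-5p), did not pass the test. It read 10.17, 10.27 and 10.50 in control hearts and 10.10, 9.90 and 9.79 in DSS hearts, so that the DSS values lay below, by as little as the gap between control 9 and DSS 13. The log2 difference was -0.39 ± 0.18 SE (95% interval -0.83 to 0.05, limma adjusted p = 0.116). Its value was 0.34 with spike-in scaling, the opposite direction. It passed as lower with the authors' processed values (-0.73, limma adjusted p = 0.0464), quantile normalization (-0.69, 0.0331) and array weights (-0.53, 0.0236). The interval of miR-99b-5p lies above those of miR-99a-5p and miR-100-5p.

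The probes with the miR-125 seed did not share a direction. miR-125a-5p was called higher (1.21), whereas miR-125b-5p (-0.22) and the relative miR-351-5p (-0.41) were not called. miR-125a-5p (rno-miR-125a-5p) read 10.77, 11.66 and 12.31 in control hearts and 12.80, 12.84 and 12.73 in DSS hearts. The control hearts were spread over a wide range and the DSS hearts lay close together above them. The mean rose from 11.58 ± 0.77 to 12.79 ± 0.06 (SD, n = 3), which is 2.31-fold higher (log2 difference 1.21 ± 0.38 SE, 95% interval 0.31 to 2.11, limma adjusted p = 0.0356). This call rests on few hearts and depends on the processing. Without control 9, the lowest, the difference was 0.34 (limma adjusted p = 0.203), and the call was also lost without control 10 (0.0715), DSS 13 (0.0629), DSS 14 (0.0705) or DSS 16 (0.0924). It was kept without control 11 (0.0340). With every array kept, limma's adjusted p was 0.0724 with plain subtraction, 0.188 without normalization and 0.167 with quantile normalization. It was 0.137 with the 75th percentile of probes detected on all arrays and 0.291 with that of all probes. With 5S rRNA scaling it was 0.0578 and with the authors' processed values 0.0590. The call was kept with spike-in scaling (1.70, limma adjusted p = 0.000893).

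miR-125b-5p (rno-miR-125b-5p) read 13.76, 13.29 and 13.67 in control hearts and 13.35, 13.45 and 13.28 in DSS hearts. Its groups overlapped, and DSS 14 lay above control 10. The log2 difference was -0.22 ± 0.19 SE (95% interval -0.68 to 0.24, limma adjusted p = 0.370), an interval that leaves room for a fall of 0.68 or a rise of 0.24. The sign turned under a normexp offset of 16, under spike-in scaling and without DSS 14. With scaling to the 75th percentile of all probes the difference was -1.04 and passed (limma adjusted p = 0.0187), and it was -0.85 with that of the probes detected on all arrays and -0.78 without control 9, where it did not pass.

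**Figure D2:**
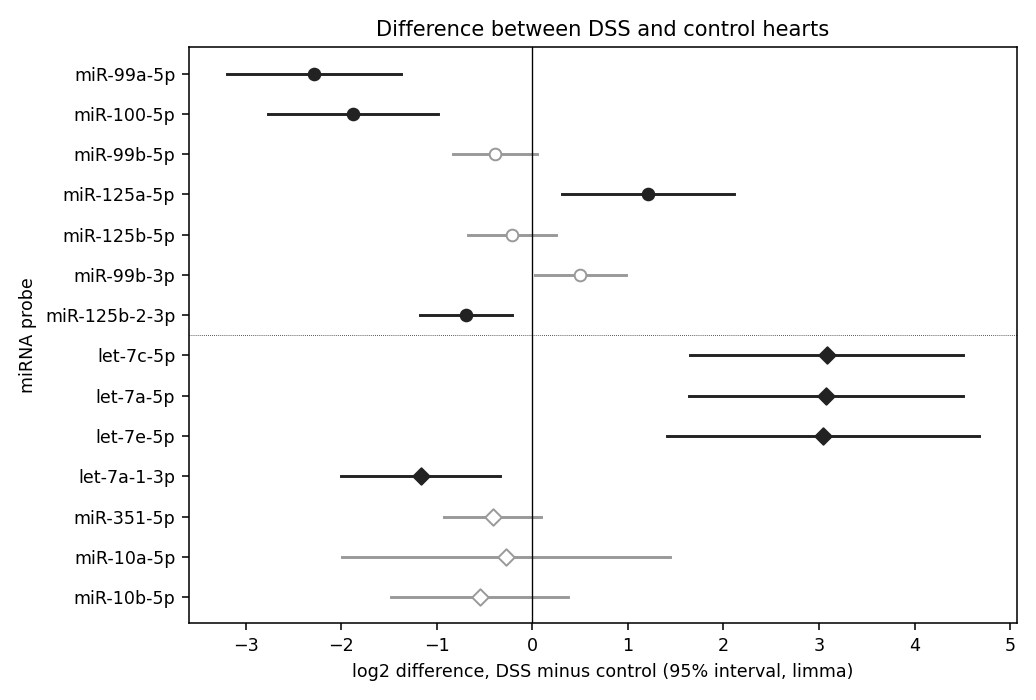
Log2 difference between DSS and control hearts (x axis) of each compared member (circles, above the dotted line) and of each compared cluster partner or relative (diamonds, below it), with limma's 95% interval. Filled symbols have an adjusted p below 0.05. miR-99a-5p and miR-100-5p lie at -2.29 and -1.87, and the let-7 5p arms lie near 3. With spike-in or 5S rRNA scaling the signs of miR-125b-2-3p, miR-351-5p, miR-10a-5p and miR-10b-5p turned, with spike-in scaling also those of miR-99b-5p and miR-125b-5p, and miR-351-5p turned without normalization and with the 75th percentile of probes detected on all arrays.

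The 2 detected 3p arms were dim. miR-99b-3p (rno-miR-99b-3p), the partner strand of miR-99b-5p, read 7.62, 7.41 and 7.41 in control hearts and 7.75, 7.93 and 8.27 in DSS hearts. The DSS values lay above the control values, by a narrow margin between control 9 and DSS 13. The log2 difference was 0.50 ± 0.20 SE (95% interval 0.02 to 0.98, limma adjusted p = 0.0741), which did not pass. It passed as higher in 8 of 24 other ways of processing or testing, all in the same direction, among them plain subtraction (0.91, limma adjusted p = 0.0451), no normalization (1.05, 0.0182), quantile normalization (0.81, 0.0265), 5S rRNA scaling (1.47, 0.00561) and spike-in scaling (1.83, 0.000356).

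miR-125b-2-3p, the 3p arm of the chromosome 11 copy of miR-125b, read 7.60, 7.15 and 7.18 in control hearts and 6.78, 6.46 and 6.62 in DSS hearts. It was detected on all 3 control arrays and, among the DSS arrays, on that of DSS 13, so the low values lie near the background. The mean was 1.61-fold lower in DSS (log2 difference -0.69 ± 0.20 SE, 95% interval -1.17 to -0.21, limma adjusted p = 0.0288), a direction that turned with spike-in scaling (0.62) and 5S rRNA scaling (0.27). The call was lost without control 9 (adjusted p = 0.0939), control 11 (0.0653), DSS 14 (0.0822) or DSS 16 (0.0906).

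To compare the seeds, the log2 values of the 3 miR-99/100 5p arms and of the 2 miR-125 5p arms were averaged on each array. miR-351-5p, which also carries the miR-125 seed, is not a member and was left out (log2 difference -0.41). miR-99a-5p and miR-100-5p count as 2 values, although their targets lie 1 base apart and shared signal was not tested. The miR-99/100 average was 11.59, 10.97 and 11.33 in control hearts and 10.29, 9.49 and 9.56 in DSS hearts, a change of -1.52. The miR-125 average was 12.27, 12.47 and 12.99 in control hearts and 13.07, 13.14 and 13.003 in DSS hearts, a change of 0.50. The sign of the miR-125 change was not stable, since it was -0.22 without control 9, -0.25 with the 75th percentile of all probes and -0.06 with that of the probes detected on all arrays. The miR-99/100 average was lower in DSS hearts in all of the 24 other ways of processing or testing, with changes between -1.99 and -0.84. Some of the 24 changed only the test or the filter on dim probes and could not move that average. The difference of the averages went from -1.28 ± 0.53 to -3.29 ± 0.45 (SD, n = 3), a change of -2.01, with every DSS heart below every control heart. Without control 9 the change was -1.34, and with the other hearts left out in turn it was between -2.27 and -1.90. No p is given for these averages, because their members were chosen together.

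A ratio of 2 probes on the same array is not moved by a single scaling factor of that array, though LOWESS and quantile normalization, which depend on brightness, can move it. Accordingly, 14 pairs of probes were compared by their within-array log2 ratios. Such a ratio shows unequal change and does not show which of the pair changed. A 2-sided exact permutation test over the 20 arrangements of 6 arrays cannot go below 0.1, so no pair could pass 0.05. For 13 of the 14 pairs the groups did not overlap, each with that smallest p of 0.1 (0.108 after Benjamini-Hochberg adjustment over the 14). Over all 39621 pairs of compared miRNAs the groups did not overlap for 63.3%, and the 14 pairs were chosen with results of these data known, so their count is not a result about these families. For the other pair, miR-125a-5p with let-7e-5p, the exact permutation p was 0.2 before and after adjustment.

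Among paralogs, miR-99a-5p changed by -1.90 relative to miR-99b-5p on the log2 scale. Their within-array log2 ratio was 2.47, 1.42 and 1.46 in control hearts and 0.42, -0.53 and -0.25 in DSS hearts. The ratio of miR-100-5p to miR-99b-5p was 1.80, 0.66 and 1.02 in control hearts and 0.15, -0.69 and -0.45 in DSS hearts, a change of -1.49. In both pairs all DSS hearts lay below all control hearts. Between miR-99a-5p and miR-100-5p, 1 base apart, the ratio changed by -0.41, from 0.63 ± 0.16 to 0.21 ± 0.06 (SD, n = 3). There too all DSS hearts lay below all control hearts. For the miR-125 paralogs the ratio of miR-125a-5p to miR-125b-5p was -2.99, -1.63 and -1.36 in control hearts and -0.55, -0.61 and -0.55 in DSS hearts, a change of 1.42 toward miR-125a-5p.

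Ratios were also taken between 5p arms whose hairpins lie on either side of a let-7 hairpin. The ratio of miR-99a-5p to miR-125b-5p was -1.13, -1.59 and -1.71 in control hearts and -2.83, -4.08 and -3.74 in DSS hearts, a change of -2.07. The ratio of miR-100-5p to miR-125b-5p changed by -1.66, from -2.10 ± 0.28 to -3.76 ± 0.59 (SD, n = 3) and by -1.04 without control 9. In the compact cluster on chromosome 1 the ratio of miR-99b-5p to miR-125a-5p was -0.60, -1.39 and -1.81 in control hearts and -2.70, -2.94 and -2.94 in DSS hearts. That change was -1.59, and it was -0.93 without control 9. In all 3 of these ratios every DSS heart lay below every control heart, but the miR-125b-5p probe serves in 2 of them and reads both of its loci. The arm particular to the chromosome 11 copy, miR-125b-2-3p, was called lower. It is dim, was detected on 1 DSS array, and turned direction with spike-in (0.62) and 5S rRNA scaling (0.27). The arms of Mir99b also changed unequally, since the ratio of miR-99b-5p to miR-99b-3p went from 2.83 ± 0.27 to 1.95 ± 0.42 (SD, n = 3), a change of -0.89. Its size depended on the processing, at -1.63 with plain subtraction, -1.49 without normalization or with any single scaling factor, -1.50 with quantile normalization and -1.35 with the authors' processed values.

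**Figure D3:**
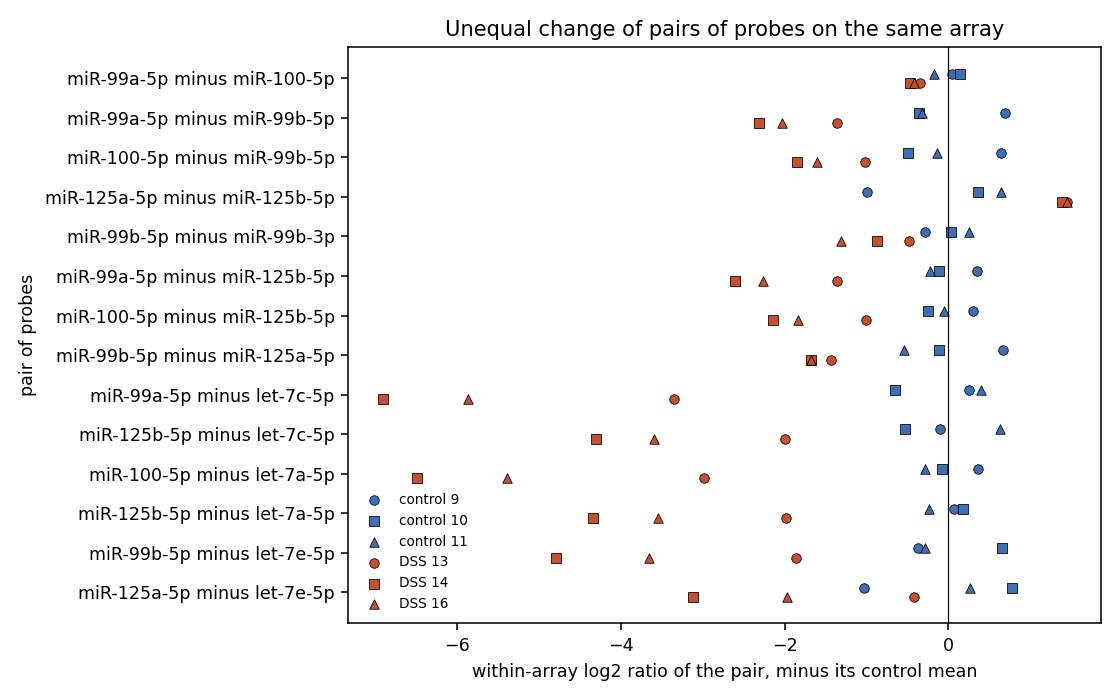
Within-array log2 ratio of each of the 14 pairs of probes, minus the mean of that ratio over the control hearts (x axis), for each array (blue control, red DSS, a marker shape per animal). For every pair except miR-125a-5p with let-7e-5p the DSS points lie to one side of the control points, furthest for miR-99a-5p with let-7c-5p.

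The 5p arms of let-7a, let-7c and let-7e were higher in DSS hearts, in the direction of miR-125a-5p and opposite to miR-99a-5p and miR-100-5p. The signal of let-7a-5p and let-7c-5p cannot be assigned to the hairpins between the members, since both have other loci. let-7c-5p read 11.09, 11.04 and 10.26 in control hearts and 12.57, 14.97 and 14.10 in DSS hearts. let-7a-5p read 11.08, 10.49 and 11.28 in control hearts and 12.71, 15.17 and 14.20 in DSS hearts. let-7e-5p read 8.37, 7.46 and 8.62 in control hearts and 9.79, 12.53 and 11.27 in DSS hearts. All 3 rose without overlap, and DSS 13 was the lowest DSS heart for each. The log2 differences were 3.08 ± 0.60 SE for let-7c-5p and 3.07 ± 0.60 SE for let-7a-5p (limma adjusted p = 0.0151 for both) and 3.05 ± 0.68 SE for let-7e-5p (limma adjusted p = 0.0170). The targets of let-7c-5p and let-7e-5p each lie 1 base from that of let-7a-5p, and shared signal was not tested. None of the 3 calls was kept without DSS 16 (adjusted p = 0.0593, 0.0593 and 0.0655).

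Relative to let-7 on the same array, the change was -5.37 for miR-99a-5p with let-7c-5p, -4.95 for miR-100-5p with let-7a-5p and -3.43 for miR-99b-5p with let-7e-5p. miR-125b-5p changed by -3.30 relative to let-7c-5p and by -3.29 relative to let-7a-5p. For miR-125a-5p with let-7e-5p the change was -1.84, the groups overlapped, and the value was -0.98 without DSS 14 and -2.76 without control 9. DSS 13 lay nearest to the control hearts in all 6 of these ratios.

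**Figure D4:**
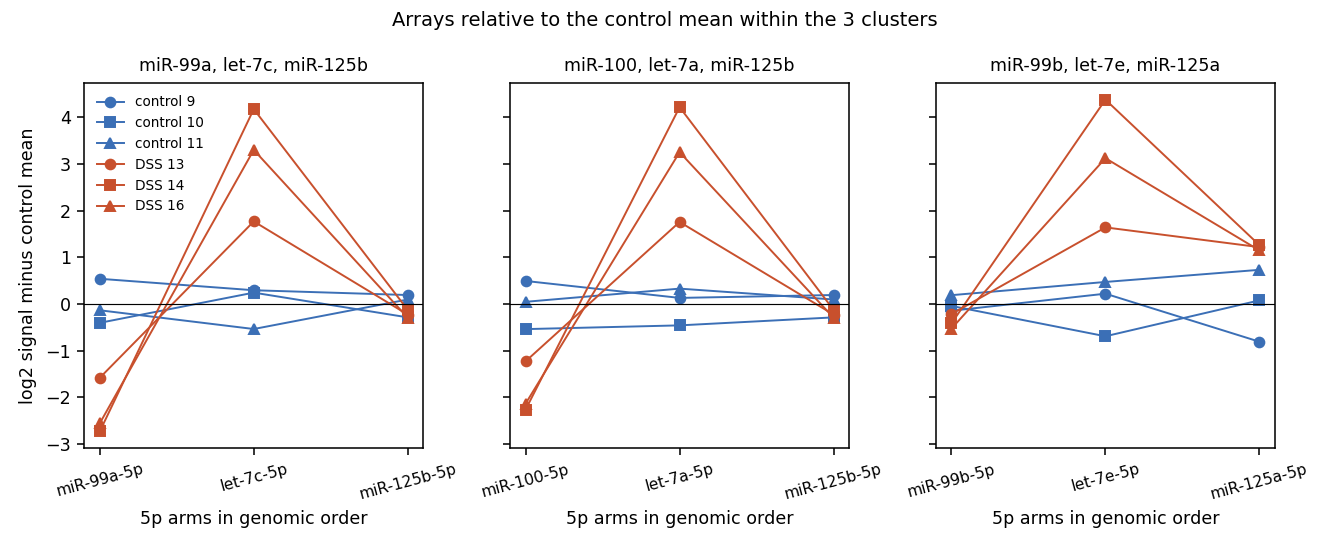
Log2 signal minus the control mean of the same probe (y axis) for the 5p arms of each cluster in genomic order (x axis), with a line per array (blue control, red DSS). In the clusters of miR-99a and miR-100 the DSS lines start low, peak at let-7 and return near 0 at miR-125b, where both panels plot the same miR-125b-5p probe. In the cluster of miR-99b they start slightly below 0 and end above it at miR-125a.

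Of the 13 probes for cluster partners and relatives, 7 were compared, of which 3 rose, 1 fell and 3 did not pass, with a median log2 difference of -0.28. Over all 282 compared miRNAs, 20.9% were called higher and 28.4% lower, with a median of -0.06. The partners that rose were the let-7 5p arms above. The one that fell was let-7a-1-3p, the 3p arm of another let-7a gene, which read 8.60, 9.29 and 9.37 in control hearts and 8.57, 7.59 and 7.60 in DSS hearts (log2 difference -1.17 ± 0.35 SE, limma adjusted p = 0.0314). That call was lost without control 10, control 11, DSS 14 or DSS 16, with adjusted p between 0.0888 and 0.115. miR-351-5p, which shares the miR-125 seed, read 7.54, 7.30 and 7.36 in control hearts and 7.27, 6.65 and 7.04 in DSS hearts. Its difference of -0.41 ± 0.21 SE did not pass (limma adjusted p = 0.138). miR-10a-5p and miR-10b-5p, Hox cluster miRNAs whose sequences resemble miR-100, differed by -0.28 ± 0.72 SE (limma adjusted p = 0.771) and -0.55 ± 0.39 SE (limma adjusted p = 0.261). The target of miR-10a-5p lies 3 edits from that of miR-100-5p.

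Across the 6 arrays the members did not vary as one set. Pearson's r is given as a description over 6 arrays that share normalization and group structure. It was 0.99 between miR-99a-5p and miR-100-5p and 0.98 between miR-99a-5p and miR-125b-2-3p, whose hairpins lie in the same cluster. A value of 0.97 was also found between miR-100-5p and miR-125b-2-3p, whose hairpins lie on different chromosomes. So a high r was not particular to cluster mates. Pearson's r was 0.66 between miR-99a-5p and miR-125b-5p and -0.41 between miR-99b-5p and miR-125a-5p, which are also cluster mates. Between the arms of Mir99b it was -0.94.

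The miRNAs whose pattern was most like each member were sought among the other 281 compared, by the same r over 6 arrays. For miR-99a-5p these were miR-450a-5p (r = 0.999) and miR-450b-5p (r = 0.998), and for miR-100-5p miR-450b-5p (r = 0.997) and miR-30b-5p (r = 0.995). For miR-125a-5p they were miR-26b-5p (r = 0.979) and miR-150-5p (r = 0.968), and for miR-125b-5p miR-15a-5p (r = 0.917) and miR-30b-3p (r = 0.869). miR-125b-2-3p was nearest to miR-547-3p (r = 0.998) and miR-201-5p (r = 0.996). miR-99b-5p was nearest to miR-93-3p (r = 0.978) and let-7a-1-3p (r = 0.954), and miR-99b-3p to miR-382-5p (r = 0.981) and miR-1839-5p (r = 0.968). No member had another member among these neighbors.

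In whole tissue, fewer cells of a type cannot be told apart from less RNA per cell. Marker miRNAs of several cell types also moved between the groups. Over all 282 compared miRNAs, 28.4% were called lower and 20.9% higher, and the groups did not overlap for 66.3%. The marker calls and sums are read against that background. The sums were taken on the LOWESS-normalized values only. The summed linear signal of the 2 endothelial markers, both detected, was 12259 to 20280 in control hearts and 4694 to 10308 in DSS hearts, with 1 called lower (miR-126a-3p). The sum of the 2 smooth muscle markers was 11724 to 18222 against 8230 to 8447, with 1 called lower. The sum of the 3 fibroblast markers was 4817 to 4921 against 3451 to 4532, with 2 called lower and 1 higher.

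The sum of the 3 erythroid markers was 2207 to 5863 in control hearts and 414 to 1065 in DSS hearts, with 2 called lower and miR-144-3p detected on no array. The sum of the 4 leukocyte markers was 2241 to 4876 against 8513 to 9959, with miR-150-5p called higher and miR-223-3p lower, while miR-142-3p and miR-142-5p were detected on 1 array each. The cardiomyocyte sum overlapped, with 41556 to 64817 against 38959 to 94832, and of its 6 markers 1 was called higher and 1 lower. The sum of 8 markers of liver, gut, epithelium and brain was 1308 to 1510 against 705 to 1165, with miR-200a-3p and miR-124-3p detected on no array, 2 called lower and 1 higher. The part of any of these in the differences of the miR-99/100 and miR-125 families was not tested.

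The directions of miR-99a-5p, miR-100-5p and miR-125a-5p were the same under all 24 other ways of processing or testing that were tried. Some of the 24 changed only the test or the filter on dim probes. Those left the difference as reported and could not turn its sign. miR-99a-5p differed by between -2.81 and -1.66 and passed in 22 of them, and miR-100-5p differed by between -2.36 and -1.21 and also passed in 22. miR-125a-5p differed by between 0.34 and 1.70 and passed in 10. miR-125b-2-3p passed in 10 of the 22 that compared it. Of the members not called as reported, miR-99b-3p passed in 8, miR-99b-5p in 3 and miR-125b-5p in 1.

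**Figure D5:**
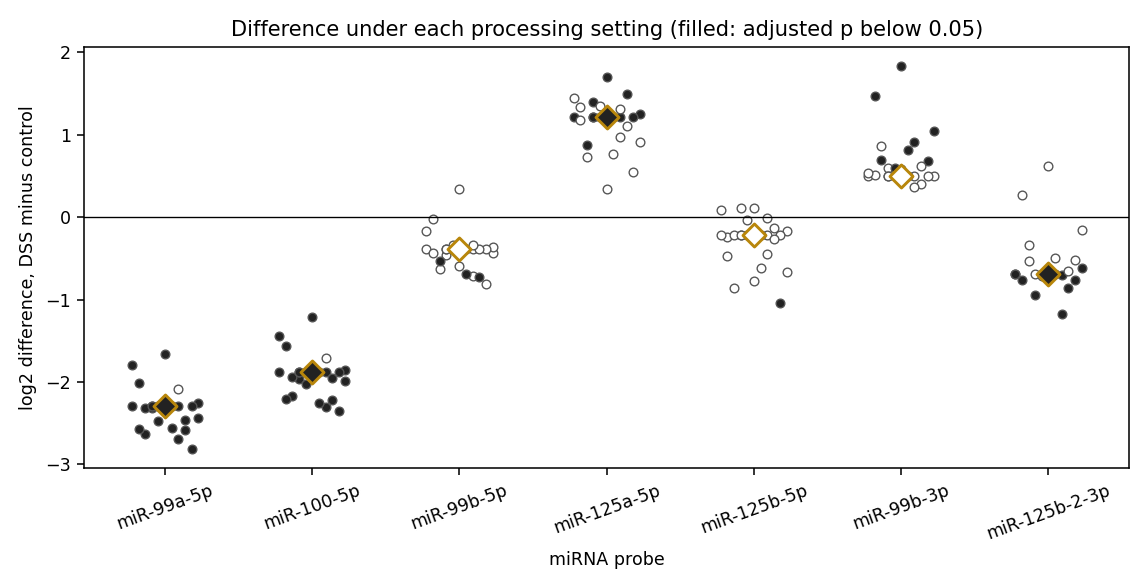
Log2 difference between DSS and control hearts (y axis) of the 7 compared members (x axis), a circle for each of the 24 other ways of processing or testing and a diamond for the reported value. Filled symbols have an adjusted p below 0.05. The points of miR-99a-5p and miR-100-5p stay below -1.2, whereas those of miR-125b-5p, miR-99b-5p and miR-125b-2-3p cross 0, all 3 with spike-in scaling, miR-125b-2-3p also with 5S rRNA scaling and miR-125b-5p also with normexp offset 16 and without DSS 14.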

How the data were processed

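Heart miRNA was measured in 6 rats, 3 control and 3 with DSS colitis, with 1 array per rat, and samples were grouped by the treatment in the labels. For each array the authors deposited scanner intensity values, the median brightness and pixel SD of each of 3968 spots, on a linear scale with background included. The authors also deposited 1 table of processed intensity values, on a linear scale after background subtraction and a LOWESS filter. The sources used here do not give how spots were combined or on which probes the filter was fitted, and they name no scanner software.

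From the scanner intensities, background was corrected by normexp (offset 50) in limma 3.58.1 under R 4.3.3. Each probe took the mean log2 value of its 4 spots, and the arrays were normalized on the 761 miRNA probes by cyclic LOWESS with span 0.7 and 3 iterations. Background for detection was the median brightness among the dimmest 25% of spots with miRNA probes. A spot passed where it exceeded this by 3 SD, measured on the 632 empty spots, with a CV of the spot below 0.5. A miRNA was detected where at least 2 of 4 spots passed and was compared where detected on at least 3 arrays. This left 282, fitted with lmFit and eBayes with Benjamini-Hochberg adjustment across all 282 at 0.05. Ratios of 2 probes were tested by 2-sided exact permutation. Bases and positions came from the probe targets and the RefSeq tables of GRCr8, read with Python 3.11.15, and figures used matplotlib 3.10.9.

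LOWESS assumes that few miRNAs change or that changes balance, so a shift shared by most miRNAs is removed. Precision is limited by the number of arrays. Nothing in the labels says more of the hearts than the animal number. No heart had repeat arrays, so the spread within a group mixes differences between animals with differences between arrays. The p-values rest on that mixed spread, which in limma is also moderated by eBayes across the compared miRNAs. Background, normalization, the authors' table, the filter on dim probes, the spot summary, the test, array weights and each array left out were varied. The text names every member, the let-7a, let-7c, let-7e, miR-351 and miR-10 probes, and for each compared member the 2 miRNAs with the most similar values. Marker lists covered cardiomyocytes, endothelium, fibroblasts, smooth muscle, leukocytes, erythroid cells and other tissues. The members and lists were chosen with earlier results of these data known. The processing was tested on simulated data in which as many miRNAs were raised as lowered. That test does not cover a shift shared by most miRNAs.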

Additional observations from a re-analysis of the deposited data

How the results depend on the processing

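The calls of miR-99a-5p and miR-100-5p failed in 2 of 24 alternatives, without DSS 16 and in the methods' t-test, where no miRNA of 282 passed after adjustment (155 at an unadjusted p below 0.05) and 5 of the 7 members had an unadjusted p below 0.05. Counts of members called higher were 0 with the 75th percentile of probes detected on all arrays, the authors' processed values (pseudocount 32), all probes tested and the methods' t-test. They were 2 with spike-in scaling and array weights, and 0 to 1 with each array left out. Over all 282 miRNAs, 148 were called higher with spike-in scaling, 79 with array weights, 63 with the authors' processed values and 49 with that 75th percentile. With all 761 probes tested, 32 were called higher. Members called lower were 0 in the methods' t-test, 4 with the authors' processed values and array weights, where miR-99b-5p was added, and 0 to 3 with each array left out. Of the cluster partners and relatives, 0 were called lower without normalization, with the 75th percentile of all probes, spike-in or 5S rRNA scaling and the methods' t-test, 2 with array weights, and 0 to 1 with each array left out. They were called higher 0 times in the methods' t-test and 0 to 3 times with each array left out. The array weights fit stopped before it converged. The change between the seed averages ranged from -2.27 to -1.34 with each array left out, and neither it nor any of the 14 pairs changed sign in 19 alternatives. Some of the 19 changed only the detection rule and could not move these values.

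Signs turned for miR-125b-5p with normexp offset 16 (0.11), spike-in scaling (0.11) and without DSS 14 (0.090), for miR-99b-5p with spike-in scaling (0.34), and for miR-125b-2-3p with spike-in (0.62) and 5S rRNA scaling (0.27). They turned for miR-351-5p without normalization (0.22), with the 75th percentile of detected probes (0.035), spike-in (1.00) and 5S rRNA scaling (0.65). They turned for miR-10a-5p with spike-in (0.75) and 5S rRNA scaling (0.39), without control 10 (0.06) and without DSS 14 (0.37), and for miR-10b-5p with spike-in (0.67) and 5S rRNA scaling (0.31). The median over all compared miRNAs was -0.06 as reported, 0.11 with plain subtraction, 0.12 with quantile normalization, 0.17 with the 75th percentile of detected probes, 0.36 without normalization, 0.78 with 5S rRNA and 1.14 with spike-in scaling. With each array left out, miR-125b-5p ranged from -0.78 to 0.090 and miR-10a-5p from -0.90 to 0.37. Relative to the median over all miRNAs, with every array kept, miR-99a-5p lay between -2.80 and -2.20, miR-100-5p between -2.41 and -1.80, miR-125a-5p between 0.56 and 1.43, miR-99b-3p between 0.47 and 0.80, miR-99b-5p between -0.83 and -0.31 and miR-125b-2-3p between -1.29 and -0.51. miR-125b-5p lay between -1.02 and 0.14. The causes were not tested.

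When the detection limit was counted from the median of the empty spots (chosen after seeing the data), this left 240 miRNAs compared with 3 members lower and 1 higher. Of all 240, 76 were called lower and 56 higher. Without the filter 74 of 761 probes were called, against 139 of 282. Counts over all miRNAs were 82 without control 9, 90 without control 11 and 66 without DSS 14. No paired analysis was possible because no animal number occurs in both groups. A block for slide or scan was not run, since neither is named in the files used here. Members near the background, miR-99b-3p and miR-125b-2-3p, are limited by signal over background.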
